A study of Mus musculus with 15 samples.

Results

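The members described here are 37 mouse genes for the digestive enzymes and nutrient transporters of the intestinal brush border, and they were taken by symbol from the gene column of both deposited tables, which hold 45905 genes each. They comprise 14 enzymes (1 phosphatase, 4 disaccharidases and 9 peptidases) and 23 transporters (3 for sugars, 1 for peptides, 8 for amino acids, 4 for monocarboxylates, fatty acids or nucleosides, 3 for vitamins and 4 for metals). All 37 were found in both tables, and 35 had enough reads to be tested in organoids and 30 in gut tissue. The study asked what the junction protein plakoglobin, encoded by Jup, does in the intestinal epithelium, with an inducible Cre recombinase driven from the villin promoter, which acts in epithelial cells. Poly-A RNA was sequenced from 5 groups of 3 libraries, whose names here follow the sample descriptions. The Tamoxifen group is organoids (gut epithelial cells cultured as small hollow bodies) of iVilCre ERT2 JUPfl/fl mice, described with the code T41. The DMSO and nativ groups are organoids of JUPfl/fl mice with no Cre in the title, both with the code T75. In organoids, Cre, agent and the T code therefore change together, and their parts cannot be told apart. The 2 gut groups are tissue, described as ctr and PG_KO. Their titles run against those names, since the ctr libraries are titled iVilCre ERT2JUPfl/fl and the PG_KO libraries DSS colitis JUPfl/fl. Both floxed alleles are thus named for all 15 libraries, and dextran sodium sulfate, an agent that injures the colon lining, only for the PG_KO libraries. Age, sex, the gut segment, the dose and the time were not given in the labels, and nothing in them says that the 3 libraries of a group came from separate animals or cultures, so p-values measure only the spread between these libraries.

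The brush border is the layer of microvilli on the luminal face of absorptive enterocytes. Enzymes anchored in it cut disaccharides and short peptides into the sugars, amino acids and small peptides that transporters beside them carry into the cell. In the small intestine these genes mark mature enterocytes, and sucrase-isomaltase and lactase are its standard markers, while the colon normally holds little of them. Other transporters in the set, such as those for folate, iron, zinc and lactate, also serve cells outside the gut.

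The libraries held 23194385 to 30744563 reads assigned to genes, and levels are given as CPM, read counts scaled to each library's total. Jup itself, the targeted gene, was at 69.0, 70.9 and 71.2 CPM in the Tamoxifen libraries, between 274.6 and 414 CPM in the 6 DMSO and nativ libraries, 301.7 to 494.6 CPM in ctr gut and 75.2 to 82.8 CPM in PG_KO gut. In gut it was thus low in the libraries described as PG_KO, and not in those whose titles name Cre. Of 8 markers of intestinal epithelium (among them Cdx1, Cdx2, Isx and Hnf4g), the summed level was 6299 to 6343 CPM in Tamoxifen organoids but 475.5 to 710 CPM in DMSO and nativ organoids. There, Isx was at 0 reads in all 3 DMSO libraries, Cdx1 at 0.277 CPM or less in all 6 and Hnf4g at 0.658 CPM or less. The other 5, Cdx2, Cdh17, Vil1, Lgals4 and Gpa33, were above 1 CPM in all 6, with Cdx2 at 15.5 to 17.8 CPM. The T75 organoids were thus near 0 for some defining markers of their labelled source, the gut, and held others at lower levels. A list of 9 bile and pancreatic duct markers summed to 3967 to 5210 CPM in them, against 1337 to 1350 CPM in Tamoxifen organoids. Of these 9, 7 were lower in Tamoxifen than in DMSO organoids, while Cftr (0.343 against 159.8 CPM) and Tspan8 (477.2 against 743.6 CPM) were higher in Tamoxifen. In gut tissue, 10 colonocyte markers summed to 1893 to 3557 CPM (ctr) and 898.9 to 1229 CPM (PG_KO), while they stood at 143.8 to 146.8 CPM in Tamoxifen organoids.

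**Figure D1:**
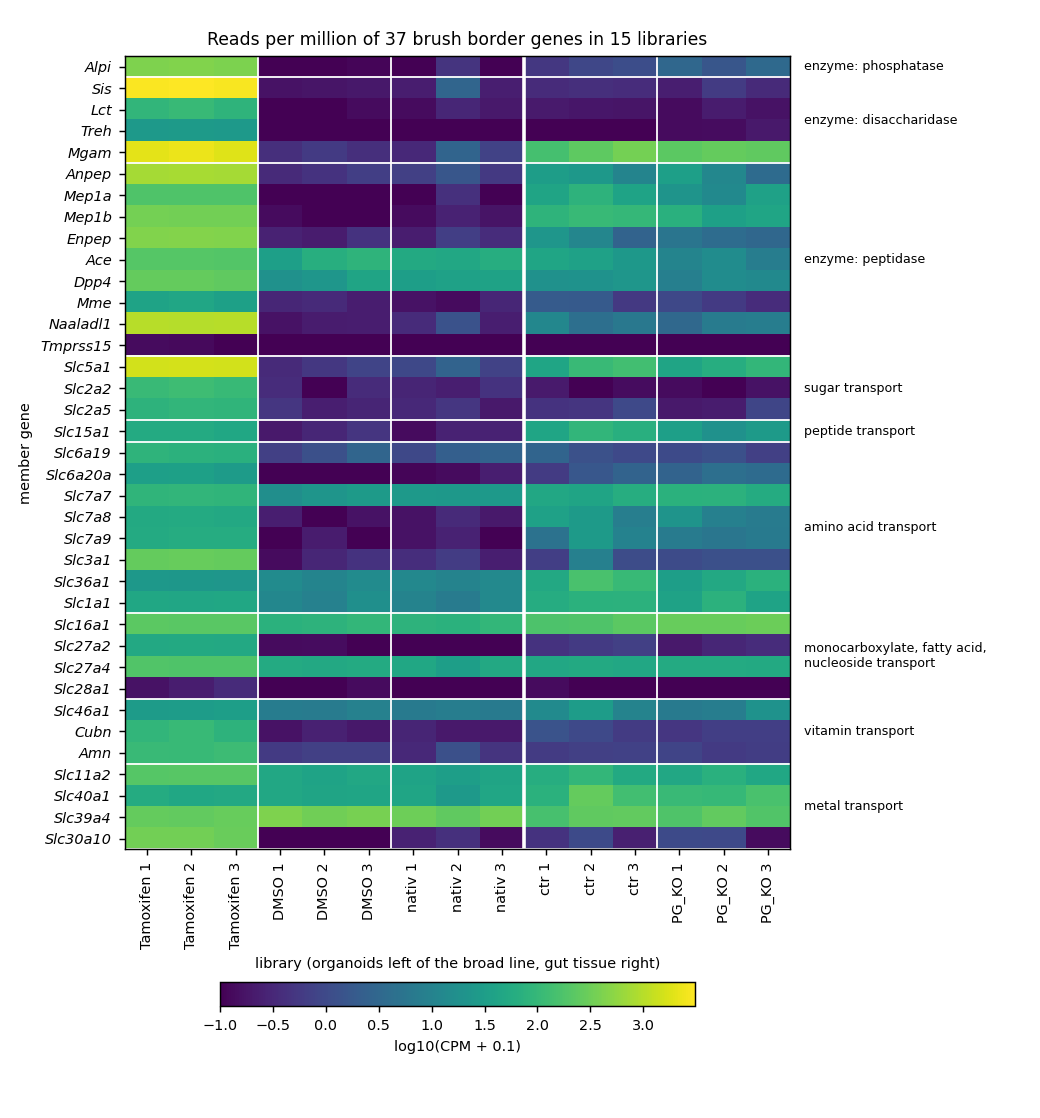
Heat map of log10(CPM + 0.1) for the 37 members (rows, by class) in the 15 libraries (columns). The 3 Tamoxifen columns are bright in nearly every row, Tmprss15 and Slc28a1 stay dark throughout, and Slc39a4 and Slc16a1 are present in all 15 libraries.

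Tamoxifen organoids held nearly the whole set at levels far above the other organoids. The 37 members together took 12750, 13320 and 12270 CPM in the 3 Tamoxifen libraries, 1.28% of all reads, against 674.3 to 815 CPM in DMSO and 569.6 to 741.7 CPM in nativ. Against DMSO organoids, 33 of the 35 tested members were higher, 1 was lower (Slc39a4) and 1 was not called (Slc40a1), where 33.9% of the 16449 genes tested were called higher and 32.4% lower. The count against nativ organoids was also 33 higher, 1 lower and 1 not called, with 33.5% of genes called higher and 33.5% lower. Calls are edgeR quasi-likelihood tests over all genes with a Benjamini-Hochberg adjusted p under 0.05. The median log2 change of the tested members was 9.42 against DMSO and 8.84 against nativ, and over all genes tested it was 0.02 and 0.01. All 13 tested enzymes were higher in both comparisons, as were 20 of 22 transporters. Many members near 0 in the T75 organoids, such as Treh and Mep1a, entered the tests only through their Tamoxifen reads and so had to rise. These counts are thus in part fixed by the filter for genes with few reads, and they are a description. In bulk RNA, more cells of a type and more RNA per cell cannot be told apart. Both comparisons share the Tamoxifen libraries, so they are not independent of each other.

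The disaccharidases Sis and Mgam and the phosphatase Alpi went from traces to some of the most abundant members, and the disaccharidases Lct and Treh from traces to lower levels. Sucrase-isomaltase, Sis, which cuts sucrose and starch fragments, was at 2926, 3096 and 2762 CPM in Tamoxifen organoids. It was at 0.0677, 0.0794 and 0.0983 CPM in DMSO, which is 7 reads over 3 libraries, and at 0.131, 2.824 and 0.139 CPM in nativ. No library of these groups overlapped the Tamoxifen range, and nativ replicate 2 stood above the other 5. The ratio of the reads pooled over each group, scaled to their pooled totals, was 35730 against DMSO (fitted log2 change 14.98 ± 1.04 SE, edgeR adjusted p = 3.96e-07) and 2872 against nativ (11.31 ± 0.845 SE, edgeR adjusted p = 7.24e-07). Maltase-glucoamylase, Mgam, the other starch-digesting disaccharidase, was at 1993, 2299 and 1847 CPM in Tamoxifen, 0.295 to 0.477 CPM in DMSO and 0.229 to 2.703 CPM in nativ organoids. Lactase, Lct, reached 83.25 to 107.9 CPM in Tamoxifen and had a single read over the 3 DMSO libraries, a 7997-fold difference with a 95% exact counting interval of 1430 to 316000 (fitted log2 change 12.45, and 14.34 without replicate 3, which held the read). Trehalase, Treh, which cuts the fungal sugar trehalose, was at 25.4, 28.5 and 26.2 CPM in Tamoxifen and at 0 reads in all 6 DMSO and nativ libraries. Set against the floor of 3 reads over a group, Treh was at least 759.7-fold higher than DMSO and at least 785.3-fold higher than nativ. Intestinal alkaline phosphatase, Alpi, which strips phosphate from bacterial lipopolysaccharide, was at 424, 445 and 409 CPM in Tamoxifen. It had 0.5 of a read over the DMSO libraries, under that floor, and was at least 12120-fold higher. Nativ organoids held 11 Alpi reads, all in replicate 2. Reads of Alpi may be shared with near-identical alkaline phosphatase genes such as Akp3, which makes its exact level uncertain.

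Since members that rose together can share motifs, the 250 bases upstream of their RefSeq start sites (GRCm38.p6) were searched for short motifs of known enterocyte factors, on both strands. Promoters were found for 32 members, 40 in all, and for Naaladl1, Mep1b, Slc40a1, Slc39a4 and Slc11a2 none was used. The letters CAAAGTCC, bound by HNF4, were in 4 of the 40 (10%), those of Alpi, Treh, Slc3a1 and Ace, and in 1.2% of all 32851 promoters. TTTATNG, bound by CDX2, was in 6 of 40 (15%) and in 9.81% of all promoters. TATAAA, which can overlap TTTATNG read on the other strand, was in 7 of 40 (17.5%) and in 12.4% of all. The promoters of 4 members are shown because they belong to members that were near absent in the T75 organoids and hold CAAAGTCC or TTTATNG. Capitals mark CAAAGTCC and TTTATNG on either strand, and each sequence runs 5′ to 3′ on the gene's strand and ends at the base before the start site.
Sis (chr3:72967864-72968113, minus strand): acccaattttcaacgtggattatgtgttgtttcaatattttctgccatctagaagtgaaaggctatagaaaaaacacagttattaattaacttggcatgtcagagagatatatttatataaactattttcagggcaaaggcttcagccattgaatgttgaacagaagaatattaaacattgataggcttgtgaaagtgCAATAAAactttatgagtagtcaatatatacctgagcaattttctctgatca
Alpi (chr1:87101607-87101856, minus strand): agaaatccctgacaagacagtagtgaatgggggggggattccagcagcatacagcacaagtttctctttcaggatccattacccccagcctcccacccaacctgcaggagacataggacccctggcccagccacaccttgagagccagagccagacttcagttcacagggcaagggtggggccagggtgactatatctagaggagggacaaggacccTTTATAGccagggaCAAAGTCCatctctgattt
Treh (chr9:44672983-44673232, plus strand): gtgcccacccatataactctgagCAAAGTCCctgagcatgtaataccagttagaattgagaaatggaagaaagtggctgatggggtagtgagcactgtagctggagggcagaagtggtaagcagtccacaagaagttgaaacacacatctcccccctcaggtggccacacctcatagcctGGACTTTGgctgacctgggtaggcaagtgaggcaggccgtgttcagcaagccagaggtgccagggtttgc
Slc3a1 (chr17:85028097-85028346, plus strand): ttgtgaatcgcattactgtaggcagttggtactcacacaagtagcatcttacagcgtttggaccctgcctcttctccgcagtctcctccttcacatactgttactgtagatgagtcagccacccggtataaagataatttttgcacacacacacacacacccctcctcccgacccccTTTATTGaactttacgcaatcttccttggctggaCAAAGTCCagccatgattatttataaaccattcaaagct
In Alpi the CDX2 letters lay at -33 to -27 and the HNF4 letters at -19 to -12 from the start site. In Slc3a1 they lay at -73 to -67 and -39 to -32. Treh held the HNF4 letters at -227 to -220 and, on the other strand, at -70 to -63. Sis held the CDX2 letters at -52 to -46 on the other strand and no match to the HNF4 letters. The promoter of Tmprss15, which had almost no reads in any group, also held the CDX2 letters. Such matches describe these windows only, and binding was not measured.

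The factors named in that search were among 18 enterocyte regulators, of which 12 were higher and 4 lower in Tamoxifen than in DMSO organoids. Hnf4g rose from 0.24 ± 0.133 (SD, n = 3) to 173.4 ± 3.58 CPM, a fitted log2 change of 9.37 ± 0.245 SE (edgeR adjusted p = 3.23e-10). Cdx1 went from 0.0109 to 103.4 CPM and Cdx2 from 16.3 to 328.8 CPM. Hnf4a, added here after its values were seen because it binds the same motif, was at 189.8 CPM in DMSO and 1054 CPM in Tamoxifen organoids.

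Peptidases fell into 3 kinds of pattern in organoids. Anpep, Enpep, Naaladl1, Mme, Mep1a and Mep1b were near absent without the Tamoxifen label, Ace and Dpp4 were present in every library, and Tmprss15 was at or near 0 throughout. Aminopeptidase N, Anpep, which trims residues from the amino end of peptides, was at 767.5, 791.7 and 763.5 CPM in Tamoxifen. It was at 0.237, 0.357 and 0.59 CPM in DMSO and 0.622, 1.49 and 0.452 CPM in nativ organoids, so the groups were far apart. Its fitted log2 change against DMSO was 10.85 ± 0.395 SE (edgeR adjusted p = 2.62e-09). Naaladl1, a dipeptidase-like membrane peptidase, was at 1026, 967.1 and 1012 CPM in Tamoxifen, with 9 reads over the DMSO libraries. Per kilobase of exon it was the third member by level in Tamoxifen organoids, at 372.4 RPKM (CPM per 1000 bases), after Sis at 491.9 and the glucose carrier Slc5a1 at 399.

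The meprin subunits, Mep1a and Mep1b, form metalloproteases of the microvillus membrane. Mep1a was at 179.9, 181.2 and 177.7 CPM in Tamoxifen and at 0 reads in DMSO, at least 5105-fold higher. Mep1b was at 360.2, 340.7 and 337.4 CPM against 1 read in DMSO, a ratio of 29520 with a 95% exact counting interval of 5300 to 1170000 (fitted log2 change 14.34, and 16.23 without replicate 1, which held the read). Aminopeptidase A, Enpep, stood at 432.5 to 450.2 CPM in Tamoxifen and 0.119 to 0.361 CPM in DMSO. Neprilysin, Mme, was lower than these in level, at 35.9 to 46.0 CPM in Tamoxifen, 0.131 to 0.238 CPM in DMSO and 0.0347 to 0.209 CPM in nativ (8.46 on the log2 scale against nativ, and 9.39 without nativ replicate 3). For each of these peptidases, every Tamoxifen library lay above every T75 library.

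Angiotensin-converting enzyme, Ace, which also trims dietary peptides, was at 34.3, 64.0 and 82.4 CPM in DMSO and 199.5, 205.7 and 191.9 CPM in Tamoxifen. That is 1.65 ± 0.247 SE on the log2 scale (edgeR adjusted p = 0.000154), and the libraries did not overlap. Dipeptidyl peptidase 4, Dpp4, which removes dipeptides after proline, was at 18.7, 22.4 and 41.6 CPM in DMSO and 252.7 to 267.3 CPM in Tamoxifen, a log2 change of 3.18 ± 0.253 SE. DMSO replicate 1 had the least and replicate 3 the most of both genes among the DMSO libraries. Enteropeptidase, Tmprss15, the duodenal protease that activates trypsinogen, had 2 reads over the Tamoxifen libraries and 0 in the other 12 libraries of all groups. A count of 0 allows up to 3 reads, which is 0.0976 to 0.129 CPM at these depths, and the gene was not tested.

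Sugar carriers were also near absent from the T75 organoids. Slc5a1, the sodium-coupled carrier that takes glucose and galactose up from the lumen, was at 1556, 1603 and 1549 CPM in Tamoxifen, 0.237, 0.437 and 0.721 CPM in DMSO, and 0.852, 2.564 and 0.661 CPM in nativ. Its fitted log2 change was 11.63 ± 0.539 SE against DMSO (edgeR adjusted p = 1.58e-08). Slc2a5, the fructose carrier, was at 79.2 to 89.7 CPM in Tamoxifen and 0.139 to 0.406 CPM in DMSO. Slc2a2, the carrier that lets glucose and fructose leave the cell toward the blood, was at 106.6 to 124.8 CPM and 0 to 0.271 CPM. The 3 sugar carriers thus rose together, by 8.29 to 11.63 on the log2 scale. Slc15a1, the proton-coupled carrier of dipeptides and tripeptides, was at 55.5, 56.5 and 46.9 CPM in Tamoxifen, 0.102, 0.199 and 0.393 CPM in DMSO and 0.0328, 0.173 and 0.174 CPM in nativ. Its log2 change against DMSO was 7.73 ± 0.296 SE (edgeR adjusted p = 3.72e-09), and 8.37 without DMSO replicate 3.

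Amino acid carriers split by their level in the T75 organoids. Slc3a1 and Slc7a9, the heavy and light chains of the luminal cystine and dibasic amino acid exchanger, were at 265.7 to 279.2 and 56.5 to 60.3 CPM in Tamoxifen. They held 17 and 3 reads over the DMSO libraries. Slc7a9 was 1673-fold higher, with a 95% exact counting interval of 572 to 8120. All 3 of its DMSO reads were in replicate 2, and without that library its fitted log2 change went from 10.48 to 13.72, which with no read left is no exact size. Slc7a8, a neutral amino acid exchanger of the basolateral side, was at 51.2 to 55.8 CPM in Tamoxifen and at most 0.135 CPM in DMSO. Slc6a20a, a carrier of proline, had 0 reads in DMSO and 29.2 to 35.2 CPM in Tamoxifen, at least 940.6-fold higher, and its reads may be shared with the close copy Slc6a20b. Slc6a19, the main luminal carrier of neutral amino acids, was at 0.609, 1.151 and 2.786 CPM in DMSO and 81.7, 75.3 and 71.6 CPM in Tamoxifen (5.57 ± 0.441 SE, and 6.37 without DMSO replicate 3). The fitted change of Slc3a1 moved from 10.32 to 11.13 without that library, and that of Slc7a8 from 9.42 to 10.29 without DMSO replicate 1. The remaining 3 carriers were present in all organoids and moved less. Slc7a7, which passes dibasic amino acids to the blood side, went from 16.7 to 27.3 CPM in DMSO to 88.0 to 91.2 CPM in Tamoxifen (log2 change 1.95 ± 0.154 SE). Slc1a1, a glutamate and aspartate carrier, changed by 1.77 ± 0.203 SE. Slc36a1, a proton-coupled carrier of small amino acids, changed by 0.80 ± 0.121 SE, the smallest rise that was called.

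Among the tested carriers of monocarboxylates, fatty acids and nucleosides, Slc16a1 and Slc27a4 changed less than Slc27a2. Slc16a1, which carries lactate and short-chain fatty acids, was at 74.97, 78.8 and 94.4 CPM in DMSO and 230.6, 220.2 and 219.1 CPM in Tamoxifen (log2 change 1.37 ± 0.105 SE, edgeR adjusted p = 8.74e-07). Slc27a4, a long-chain fatty acid transport protein of enterocytes, was at 50.5 to 56.3 CPM and 177.6 to 185.3 CPM. Slc27a2, which activates very long-chain fatty acids, had 2 reads in DMSO, 0 in nativ and 51.1 to 52.7 CPM in Tamoxifen. That is 2211-fold with a 95% exact counting interval of 612 to 18300 against DMSO, and at least 1524-fold against nativ. Slc28a1, a sodium-coupled nucleoside carrier, had 13 reads in Tamoxifen, 1 in DMSO and 0 in nativ, and it was not tested.

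The cobalamin receptor and the folate carrier were higher in Tamoxifen organoids. Cubn and Amn, which together form the receptor for intrinsic factor with cobalamin, were at 79.7 to 107.1 and 107.5 to 117.6 CPM in Tamoxifen. In DMSO they were at 0.0677 to 0.159 and 0.474 to 0.623 CPM, and both rose, by 9.66 ± 0.236 SE and 7.56 ± 0.352 SE on the log2 scale. Slc46a1, the proton-coupled folate carrier, was at 7.71, 7.27 and 9.37 CPM in DMSO and 29.0, 30.9 and 32.6 CPM in Tamoxifen (1.86 ± 0.141 SE).

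The 4 metal transporters were the only class with tested members that did not rise. Slc30a10, a manganese exporter, was at 0 reads in DMSO, 0.0348 to 0.312 CPM in nativ and 293.5 to 339.6 CPM in Tamoxifen, at least 9209-fold above DMSO. Slc11a2, the proton-coupled importer of ferrous iron, was at 39.5 to 49.1 CPM in DMSO and 205.7 to 212.5 CPM in Tamoxifen (log2 change 2.13 ± 0.0941 SE). Slc40a1, ferroportin, which exports iron to the blood, was at 49.1, 42.1 and 43.0 CPM in DMSO, 43.5, 26.8 and 44.7 CPM in nativ and 56.7, 47.1 and 51.6 CPM in Tamoxifen. The DMSO and Tamoxifen ranges overlapped (0.14 ± 0.138 SE, edgeR adjusted p = 0.377). Against nativ they did not overlap, and the change of 0.33 ± 0.138 SE missed the threshold (edgeR adjusted p = 0.0548), though it passed without nativ replicate 3 (0.42, edgeR adjusted p = 0.0333). At 0.34 it also passed with DESeq2 (adjusted p = 0.0431), limma-voom (adjusted p = 0.0465), and edgeR with RLE size factors (adjusted p = 0.0496) or the replicate block (adjusted p = 0.028). Without nativ replicate 2 it was 0.16 (edgeR adjusted p = 0.147). Slc39a4, the zinc importer of the luminal membrane, was the most abundant member in the T75 organoids, at 413.3, 323.5 and 374.7 CPM in DMSO, 312.4, 248.7 and 342 CPM in nativ and 266.6, 260.2 and 277.5 CPM in Tamoxifen. It was lower than in DMSO without overlap, by -0.53 ± 0.107 SE on the log2 scale (edgeR adjusted p = 0.00118). Its ranges in nativ and Tamoxifen overlapped, and the change of -0.28 ± 0.106 SE had an edgeR adjusted p of 0.0386. That call was lost without nativ replicate 1 (adjusted p = 0.0598), nativ replicate 3 (0.139), or Tamoxifen replicate 1 (0.101), 2 (0.111) or 3 (0.0623) in the same edgeR test.

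**Figure D2:**
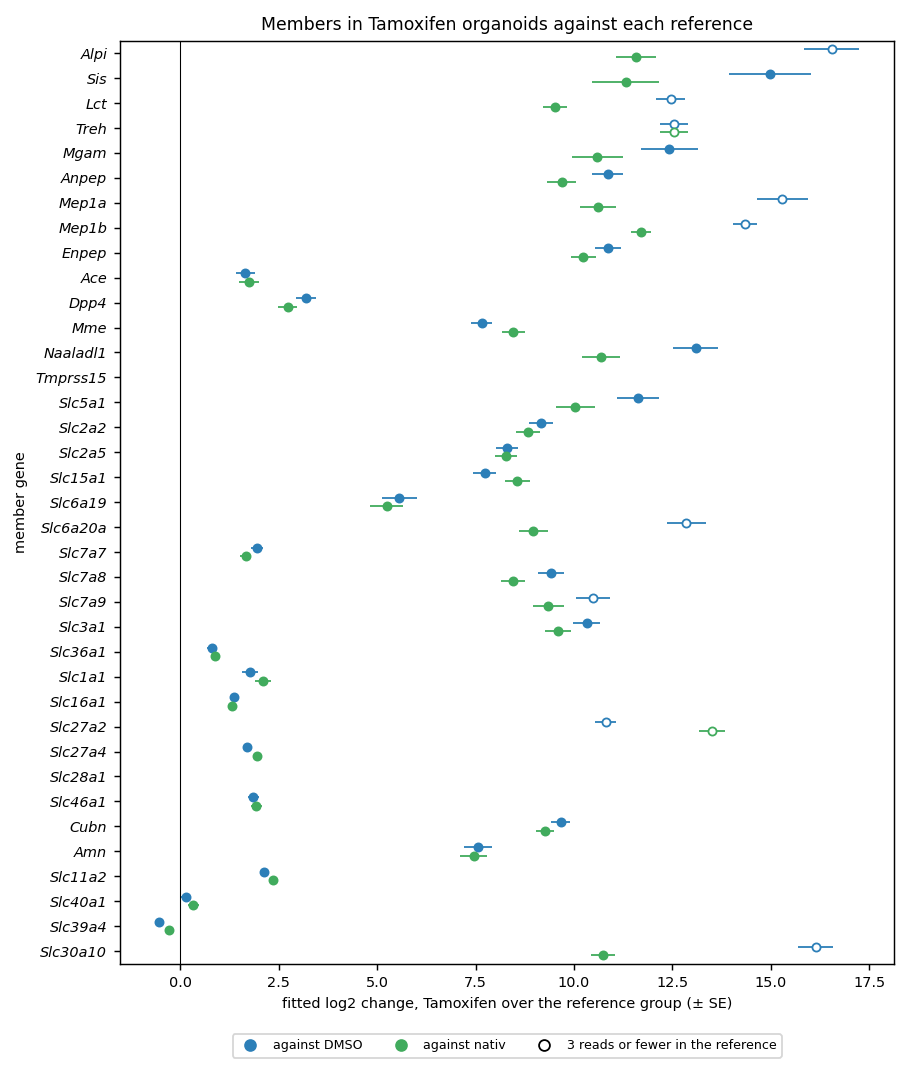
Fitted log2 change of each tested member in Tamoxifen organoids over DMSO (blue) and nativ (green) organoids, with SE bars. Open points rest on 3 reads or fewer in the reference and show no exact size. Most members lie between 5 and 17, a smaller set between 0 and 4, and only Slc39a4 lies below 0.

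The size of the rise divided the tested members. Against DMSO, 24 members had fitted log2 changes of 5.57 to 16.54 and 9 of 0.80 to 3.18, with none between. The upper end, 16.54, is that of Alpi, which had 0.5 of a read in DMSO, and is no exact size. The 24 were those under 1 CPM in at least 1 DMSO library, and the 9, with Slc39a4 and Slc40a1, were the 11 members above 1 CPM in all 3. The same counts, 24 and 9, held against nativ organoids, with changes of 5.24 to 13.50 and 0.89 to 2.73. There 13.50 is that of Slc27a2, which had 0 reads in nativ, and is no exact size either. Many members near 0 in the T75 organoids, such as Treh and Mep1a, passed the low-count filter only through their Tamoxifen reads and so had to rise. Others, such as Slc6a19 and Amn, had enough DMSO reads to pass without them. Tmprss15 and Slc28a1, near 0 in all organoids, were not tested. The division thus follows in part from the filter and the T75 levels, and it is a description only.

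Among the T75 libraries, nativ replicate 2 stood apart. Take the 13 members that reached 100 CPM in Tamoxifen and averaged under 1 CPM in DMSO. In nativ replicate 2 these were at 0.0501% to 1.02% of the mean Tamoxifen level, with a median of 0.132%, and it was the highest of the 6 T75 libraries for 12 of the 13. The medians of the other 5 libraries were 0.0119% to 0.0323%. The exception was Slc2a2, where nativ replicate 3 was highest. These members were picked in part by low DMSO levels, so their comparison with the DMSO libraries is a description only. Outside them, nativ replicate 2 was the lowest T75 library for some members but not all, among them Slc39a4 (248.7 CPM) and Slc40a1 (26.8 CPM). The source of the reads of the 13 members in nativ replicate 2 was not tested. Leaving out nativ replicate 2 moved the fitted fold against nativ by over 1.5 times for 15 of the 35 members, all upward. In each of them it was the highest nativ library, so that direction followed from leaving it out. On the log2 scale, Sis moved from 11.31 to 14.29, Mgam from 10.59 to 12.10, Naaladl1 from 10.69 to 12.18 and Slc7a9 from 9.34 to 10.53. Amn moved from 7.45 to 8.43, Slc5a1 from 10.03 to 10.94 and Mep1b from 11.71 to 12.56. Slc30a10 moved from 10.74 to 11.52, Lct from 9.52 to 10.28, Enpep from 10.24 to 10.98, Anpep from 9.69 to 10.41, Slc7a8 from 8.45 to 9.16 and Slc2a5 from 8.28 to 8.88. Alpi and Mep1a, with no read left in nativ, had no exact value.

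**Figure D3:**
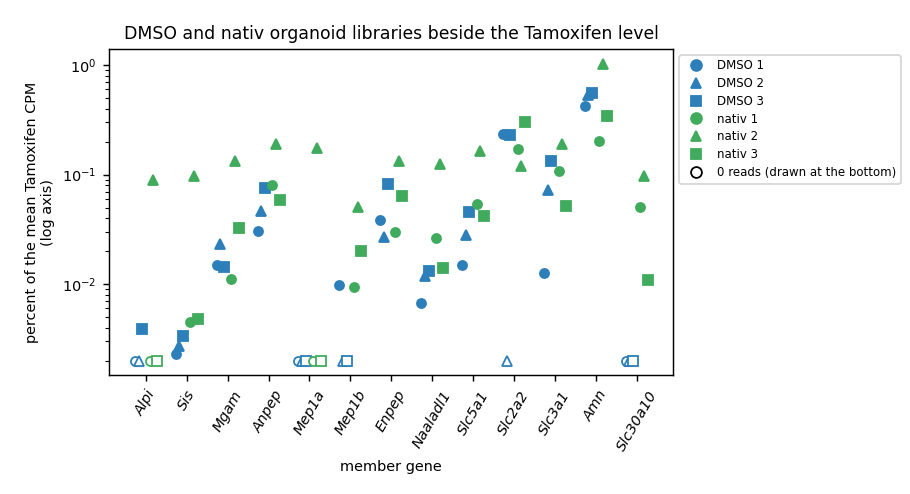
Level of 13 members in each DMSO and nativ library as a percent of the mean Tamoxifen CPM, on a log axis. Nativ replicate 2 (green triangles) lies at or above 0.0501% for every gene, and open symbols at the bottom stand for 0 reads.

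DMSO against nativ organoids, which share code and genotype and differ in the agent named, gave no edgeR call among the 35 members, and 0% of the 16449 genes were called higher and 0% lower. At an unadjusted p under 0.05 there were 12 members and 2408 genes. DESeq2 called 1 member, Slc30a10, lower in DMSO (log2 change -4.75, DESeq2 adjusted p = 0.0232), where it called 0.485% of 14213 genes lower. That gene had 0 reads in DMSO and 15 in nativ, 9 of them in replicate 2.

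Related genes outside the set, from other lists of the same kind, were also mostly called higher in Tamoxifen organoids. Over all genes tested, 33.9% were called higher than in DMSO and 32.4% lower. Of 14 other brush border enzymes, 13 were tested against DMSO, and 12 were higher and 1 lower, with a median log2 change of 5.08. The smallest p-value was that of the dipeptidase Dpep1 (log2 change 11.78 ± 0.334 SE). Of 20 tested nutrient transporters, 17 were higher and 2 lower with a median of 5.19. The smallest p-values among them were those of the sulfate carrier Slc13a1 (10.71 ± 0.282 SE) and the sodium-proton exchanger Slc9a3 (9.54 ± 0.293 SE). Of 21 tested vitamin and metal genes, 18 were higher and 2 lower, but their median change was 1.00. Among them the iron oxidase Heph, the partner of ferroportin, rose by 5.81 ± 0.211 SE and the zinc and iron importer Slc39a14 by 3.09 ± 0.0868 SE. The mean summed level of the vitamin and metal list was nonetheless 5659 CPM in Tamoxifen and 6103 CPM in DMSO, with overlap. In nativ it was 6736 CPM, above Tamoxifen without overlap. The sums of the other enzymes and nutrient transporters were higher in Tamoxifen than in DMSO, at 2021 against 223.9 CPM and 1063 against 846 CPM. All 10 genes of microvillus structure were higher, with the links between microvilli, Cdhr2 and Cdhr5, at 9.44 ± 0.149 SE and 9.76 ± 0.166 SE. Of 10 general epithelial markers 7 were higher and 1 lower, with a median of 0.58. Against nativ, 11 of 13, 17 of 20, 17 of 21 and 10 of 10 genes of the first 4 lists were higher, where 33.5% of all genes tested were.

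In gut tissue the set was present in another mix. Tamoxifen organoids held the highest group mean for 31 members, 29 of them with all 3 libraries above every other library. The 31 include Tmprss15, on 2 reads, and the 29 include Slc28a1, on 13 reads. That share was not computed for all genes over the 5 groups. Without overlap, 41.8% of all genes tested were higher in Tamoxifen than in DMSO organoids, and 43% than in nativ. Gut held the highest mean for Slc15a1, Slc36a1, Slc1a1, Slc40a1 (ctr) and Slc16a1 (PG_KO). Slc39a4 was highest in DMSO organoids. The 2 tables were deposited separately, so levels across them are a description. Sis was at 0.251 to 0.302 CPM in ctr gut and 0.141 to 0.515 CPM in PG_KO gut, Lct at most at 0.119 CPM, Treh at most at 0.103 CPM and Slc2a2 at most at 0.107 CPM. These 4 members were thus near absent, while others of the set were well present in ctr gut, with Mgam at 146 to 363.7 CPM, Mep1b at 82.1 to 104.4 CPM, Slc5a1 at 44.1 to 135.4 CPM and Anpep at 10.7 to 31.5 CPM. A list of 5 ileal markers summed to 84.7 to 173.8 CPM there. The most abundant members in ctr gut per kilobase were Slc39a4 (56.5 RPKM), Slc40a1 (45.3 RPKM), Slc16a1 (43.9 RPKM) and Mep1b (41.7 RPKM).

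No member was called between PG_KO and ctr gut by edgeR, and 0% of the 18043 genes tested were called higher and 0% lower. Of the 30 tested members, 7 had an unadjusted p under 0.05, as had 2705 of all genes. The adjusted p of every member was at least 0.33. The members' median log2 change was -0.62, and -0.03 over all genes, with 23 members below 0 and 7 above. Over all genes tested, 9485 were below 0 and 8558 above. All 8 tested peptidases were below 0, with a median of -1.03, as were both tested sugar carriers, and no difference between classes was tested. Below 0 were also 6 of 8 amino acid carriers, 3 of 4 metal carriers and 2 of 3 vitamin carriers. Both tested carriers of monocarboxylates and fatty acids were above 0. The summed level of the peptidases was 253.3, 282.1 and 207.9 CPM in ctr gut and 153.4, 103.9 and 118 CPM in PG_KO gut, without overlap. Mep1b and Mep1a held much of that sum, with means of 95.3 and 53.7 CPM of 247.8 CPM in ctr gut. The 37 members together overlapped, at 1224 to 1932 CPM in ctr and 1332 to 1456 CPM in PG_KO.

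Ace had the lowest p among the members. It was at 43.4, 37.1 and 24.9 CPM in ctr gut and 10.7, 15.4 and 7.83 CPM in PG_KO gut, a log2 change of -1.62 ± 0.3 SE. DESeq2 called it lower (-1.60, DESeq2 adjusted p = 0.000826) among 2.04% of 18031 genes called lower. Mep1b was at 82.1, 104.4 and 99.4 CPM in ctr and 69.4, 35.9 and 44.4 CPM in PG_KO (-0.91 ± 0.29 SE). Mep1a was at 41.1, 78.9 and 40.96 CPM and 21.0, 13.6 and 37.4 CPM (-1.15 ± 0.433 SE). Dpp4 was at 18.3, 19.2 and 22.8 CPM and 8.61, 15.4 and 13.4 CPM (-0.69 ± 0.245 SE). The peptide carrier Slc15a1 was at 42.9, 91.0 and 67.9 CPM and 34.6, 18.4 and 28.2 CPM (-1.29 ± 0.362 SE). In these 5 genes each PG_KO library lay below each ctr library, which was so for 8.67% of the genes tested. Enpep (-1.56 ± 0.709 SE), Mme (-1.31 ± 0.665 SE), Anpep (-0.36 ± 0.788 SE) and Naaladl1 (-0.26 ± 0.47 SE) overlapped.

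Among tested members, 4 had every PG_KO library above every ctr library, where 9.97% of genes had. Alpi was at 0.43, 0.819 and 1.033 CPM in ctr and 3.065, 1.504 and 3.281 CPM in PG_KO (log2 change 1.79 ± 0.516 SE). DESeq2 called it higher (DESeq2 adjusted p = 0.0481) among 0.505% of genes called higher. Slc16a1 was at 173, 179.3 and 230.9 CPM and 284.9, 277.6 and 302.1 CPM (0.58 ± 0.18 SE). Slc6a20a was at 0.501, 1.574 and 2.563 CPM and 2.607, 4.295 and 3.657 CPM (1.17 ± 0.595 SE). Slc27a4 differed least, at 48.7 to 52.6 and 54.0 to 56.6 CPM (0.15 ± 0.119 SE). In Slc6a20a the groups nearly touched, and in Slc27a4 they lay close together.

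**Figure D4:**
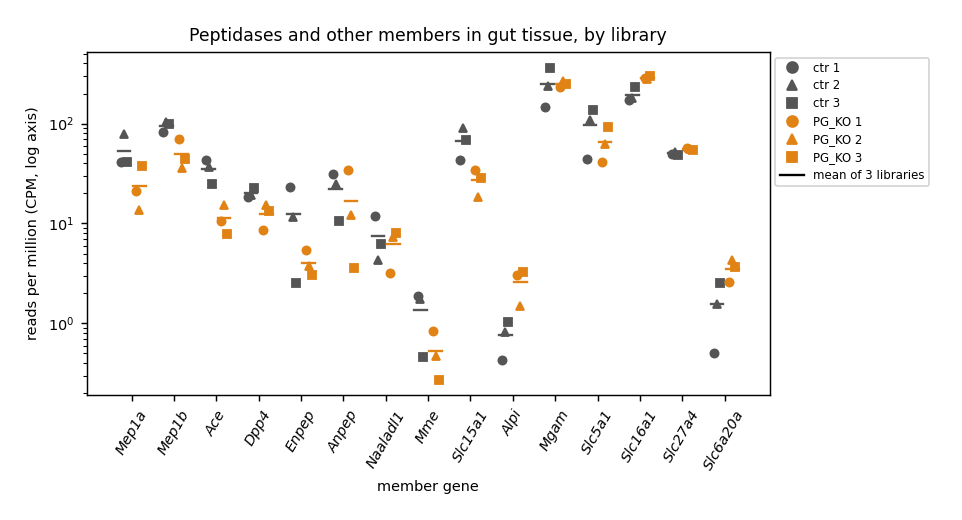
CPM of 15 members in each gut library on a log axis, ctr in grey and PG_KO in orange, with a bar at each mean of 3. PG_KO points lie below all ctr points for Mep1a, Mep1b, Ace, Dpp4 and Slc15a1 and above them for Alpi, Slc16a1, Slc27a4 and Slc6a20a.

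Both tested sugar carriers and 7 of the 8 tested amino acid carriers overlapped between ctr and PG_KO gut. Slc5a1 was at 44.1, 108.4 and 135.4 CPM in ctr and 41.3, 62.1 and 92.3 CPM in PG_KO (-0.57 ± 0.46 SE). Slc36a1 was at 50.7, 160.1 and 105.1 CPM and 33.1, 51.0 and 73.6 CPM (-1.01 ± 0.457 SE). Slc3a1 in ctr rested on replicate 2, at 8.88 CPM against 0.573 and 0.994 CPM in the others, and PG_KO was at 0.951 to 1.148 CPM. Without ctr replicate 2 its change went from -1.69 to 0.483, and that of Slc40a1 from -0.34 to 0.27. Among the peptidases, Naaladl1 went to 0.20 without ctr replicate 1 and Anpep to 0.14 without PG_KO replicate 3. Mgam did not move on average, with a log2 change of 0.00 ± 0.334 SE and ctr libraries from 146 to 363.7 CPM. Slc40a1 and Slc11a2, the iron pair, overlapped (-0.34 ± 0.457 SE and -0.31 ± 0.246 SE), as did Slc39a4, Slc46a1, Cubn and Amn.

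Some lists of other tissue markers differed between the same groups, and their part in these values was not tested. The 10 epithelial markers summed to 9704, 12180 and 16060 CPM in ctr and 18220, 15040 and 17970 CPM in PG_KO. The 7 smooth muscle markers summed to 4903, 3802 and 784 CPM in ctr and 768.9, 1050 and 1320 CPM in PG_KO. Both of these sums overlapped between the groups, as did those of the fibroblast, endothelium, myeloid, and neuron and glia lists. The lists for B and plasma cells (203.2 to 581.9 and 78.1 to 171.2 CPM) and T and NK cells (17.2 to 44.0 and 8.74 to 11.8 CPM) were lower in PG_KO without overlap. Colonocyte markers were lower without overlap, and 8 of the 10 were above 1 CPM in all PG_KO libraries. Car4, a carbonic anhydrase of surface colonocytes, had the smallest p of that list (-3.97 ± 0.424 SE, edgeR adjusted p = 0.181). No marker in the smooth muscle, T and NK, B and plasma or colonocyte lists was at 0 in all 3 libraries of either group.

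Scaled to the epithelial markers in place of all genes, the members' median moved to -1.08, beside -0.53 over all genes, and no member was called. Ace was then at -2.15 ± 0.474 SE, Mep1b at -1.42 ± 0.279 SE and Slc15a1 at -1.78 ± 0.322 SE (adjusted p = 0.0941 by edgeR), while Slc27a4, Amn and Slc30a10 changed sign, to -0.34 ± 0.279 SE, -0.46 ± 0.535 SE and -0.12 ± 1.02 SE. Among the ctr libraries, replicate 3 was the lowest in smooth muscle and the highest in epithelial markers. Without it, edgeR called 1478 genes, against 0 with all 6 libraries, and with all 6 DESeq2 called 458. The part of the tissue markers in this was not tested. The 1478 included Ace (-1.76, adjusted p = 0.0385), Enpep (-1.998, adjusted p = 0.0437) and Slc16a1 (0.775, adjusted p = 0.0423). Without ctr replicate 1, Enpep went to -0.79 (edgeR adjusted p = 0.766).

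**Figure D5:**
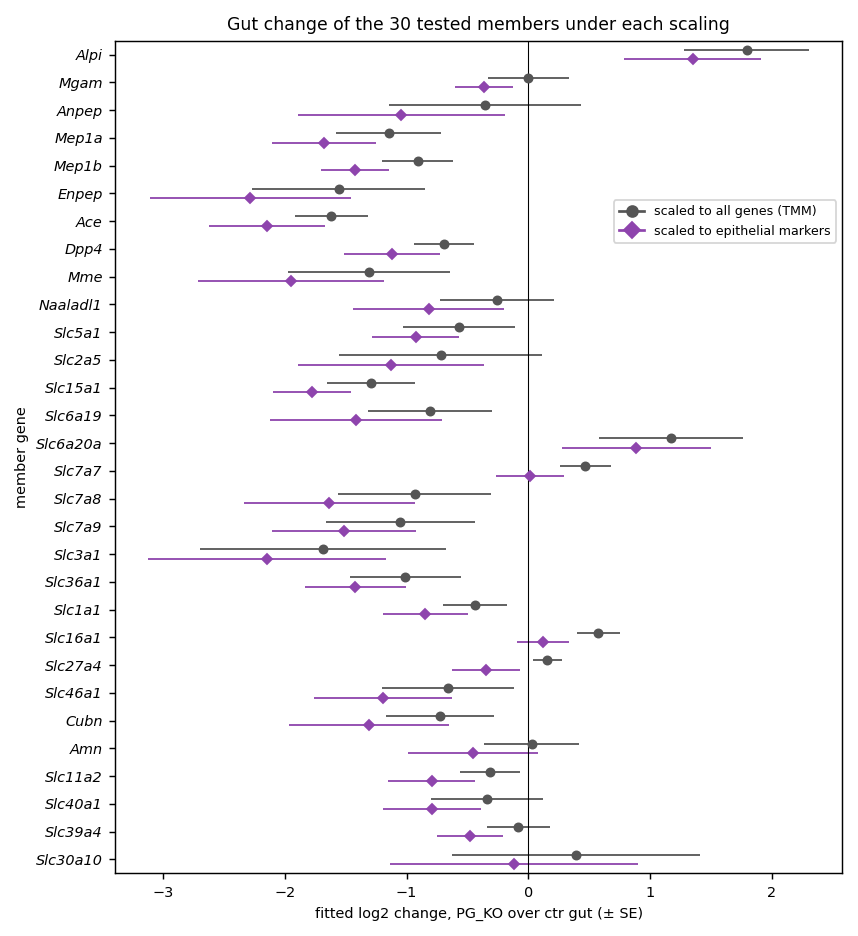
Fitted log2 change of the 30 tested members in PG_KO over ctr gut, scaled to all genes (grey) or to the epithelial markers (purple), with SE bars. Most points lie left of 0 under both scalings, Alpi, Slc6a20a, Slc7a7 and Slc16a1 lie right of it under both, and no point was called by edgeR.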

How the data were processed

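Bulk poly-A RNA was sequenced from 9 organoid and 6 gut libraries, extracted with TRIzol per the labels' protocols. The submitters' processing notes name the build GRCm38.p6, STAR 2.7.2b and featureCounts 1.6.4, beside cutadapt 2.5, bcl2fastq 2.20.0.422 and DESeq2. The authors deposited expected counts, estimated reads per gene that need not be whole: 10.4% to 12.9% of organoid values and 12.6% to 13.7% of gut values in a library were fractional. Shared reads can therefore be split between near-identical genes, and strand use in counting is not given in the sources used here. All 15 per-sample columns were used, 1 of them matched to ctr replicate 3 despite a misspelt name.

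The values were rounded and fitted with edgeR 4.0.16 (R 4.3.3; TMM, filterByExpr, robust quasi-likelihood F test), with the 9 organoid libraries in 1 fit and the 6 gut libraries in another. Benjamini-Hochberg adjustment ran over all genes tested, with a threshold of 0.05. CPM used the deposited library totals, and RPKM the deposited exon lengths. Where a reference group had no reads, or under 1, the fold was computed against a floor of 3 reads over that group and is a lower bound. With 1 to 3 reads, a 95% exact interval is given. Intervals and floors cover counting error only. The scripts were tested on simulated data. Alternatives were DESeq2 1.42.0, limma-voom 3.58.1, RLE and library-total scaling, other filters, a replicate block, a fit of only the libraries compared, epithelial scaling in gut, and leaving out each library. The labels name no pairing by replicate number, and a check of same-numbered libraries cannot exclude one. The fit without the block was used, with the block as an alternative.

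The members and lists were chosen with earlier results of these data known. The genes named are all members, Jup, at most 4 genes of each other list with the smallest p in the comparison described, and genes needed to say which are at 0. Hnf4a was named after its values were seen, and the division of members by size of change was made then too. Some genes of the lists are counted but not reported by name here.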

Additional observations from a re-analysis of the deposited data

Results flagged for a closer look

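The peptidases Mep1a, Mep1b, Ace and Dpp4 and the peptide carrier Slc15a1 lay in opposite directions in the organoid and gut comparisons. Every Tamoxifen organoid library was above every DMSO and nativ library, while every PG_KO gut library was below every ctr library. Since 33 of the 35 tested members lay above DMSO without overlap, nearly any member lower in gut would be opposite. Over all genes tested, 41.8% lay above DMSO and 43% above nativ in this way. In gut, 8.67% of genes lay below ctr without overlap. The gut log2 changes were -1.15 for Mep1a, -0.91 for Mep1b, -1.62 for Ace, -0.69 for Dpp4 and -1.29 for Slc15a1, none with an adjusted p under 0.33 by edgeR. The difference between the organoid and gut changes was not tested, since the tables come from separate material and their groups differ in more than Jup.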

How the results depend on the processing

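Against DMSO organoids, 1 member was lower under every alternative run, and 33 were higher except 32 by DESeq2, which gave Sis no adjusted p, and 34 with no low-count filter. Against nativ, 33 to 34 were higher, and no called value changed sign in any comparison. Against nativ organoids, the count of members lower, 1 (Slc39a4), became 0 with library totals (-0.17, edgeR adjusted p = 0.3) and 0 with no low-count filter (edgeR adjusted p = 0.0695), and was 0 to 1 when each library was left out. Library totals also moved the median of all genes there from 0.01 to 0.129 and the share of calls that were higher from 50% to 56.2%. Between DMSO and nativ, genes called went from 0 to 157 with DESeq2 and 2 with no filter, and 0 to 1 when each library was left out, with 1 member lower by DESeq2. In gut, genes called went from 0 to 458 with DESeq2, 5 with no filter and 9 on the epithelial scale. They were 0 to 1478 when each library was left out, with the 1478 reached without ctr replicate 3. Members higher in gut were 1 by DESeq2 and 0 to 1 with a library left out, and members lower 1 and 0 to 2. Where not stated, the cause was not tested. With the replicate block, Slc40a1 was called against nativ (0.34, edgeR adjusted p = 0.028), and genes called were 10823 against DMSO and 10838 against nativ, from 10907 and 11012. The check of same-numbered libraries gave correlations of -0.183 to 0.289 across genes. Values not called changed sign 18 times between DMSO and nativ and 27 times in gut. Members with under 3 reads in a reference have no exact fold.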
